A study of Mus musculus with 4 samples.

Results

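Kidney cells make serine from a glycolytic intermediate, pass its carbon to folate, and make proline from glutamate. The 9 genes described here encode enzymes of these routes, chosen by symbol from the 32285 genes of the deposited feature lists, where all 9 were found. Phgdh, Psat1 and Psph encode the consecutive steps of serine synthesis. Shmt1 in the cytosol and Shmt2 in mitochondria split serine into glycine and a one-carbon unit carried by folate, and Mthfd2 and Mthfd1l oxidise and release that unit inside mitochondria. Aldh18a1 and Pycr1 encode mitochondrial enzymes that begin and end the conversion of glutamate to proline. In mammalian cells many of these genes are known targets of ATF4, the transcription factor of the integrated stress response, which is known to respond to faults in mitochondrial translation. The proximal tubule is a known site of serine synthesis in the kidney.

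Droplet single-cell RNA sequencing had been made of whole kidneys of mice with a point mutation in the mitochondrial gene trnE, which encodes the transfer RNA for glutamate, and of wild-type C57BL/6J mice. The 2 trnE mutant libraries came from mice labelled with mutation loads of 79% and 76%, and 2 libraries came from wild-type mice. A load under 100% means that wild-type and mutant copies of the mitochondrial genome were present together, and the load of single cell types is not given in the sources used here. Cells had been released with an enzyme mix and sorted for viability, and a library is taken as 1 mouse, since the labels mention no pooling.

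The libraries held 65565948 and 70013861 UMIs in the mutants, against 42121175 and 59946996 in the wild types. After filters, cells numbered 9507 and 8849 in mutants, against 5678 and 6300 in wild types. Pairs of libraries shared 14 to 26 cell barcodes. Wild-type library 2 stood apart in cell make-up: macrophages were 29.0% and 19.5% of mutant cells, against 14.2% and 0.905% of wild-type cells, and proximal tubule cells were 19.7% and 11.4%, against 27.2% and 47.2%. Wild-type library 1 was deposited under a name of the mutant form, and mutant library 1 under one with a number other than its load. Groups therefore rest on the labels, and counts of nuclear genes give no check of them. Clusters were named from marker genes, and 9 classes had at least 50 cells in every library and were tested. All 12 proximal tubule markers were detected in that class, with a summed level of 13740 and 23840 CPM (counts scaled to the same total in each library) in mutants and 19170 and 17000 CPM in wild types.

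Promoters are shown for Phgdh and Psat1, whose proximal tubule levels differed most between the groups relative to their error, and for Pycr1, which alone held an element that C/EBP-ATF factors, ATF4 among them, are known to bind. Each sequence holds the 250 bases before the RefSeq start (GRCm38.p6), read 5′ to 3′ on the strand of the gene, and capitals mark matches to the motifs named after the sequences.
Phgdh, chr3:98339970-98340219, minus strand: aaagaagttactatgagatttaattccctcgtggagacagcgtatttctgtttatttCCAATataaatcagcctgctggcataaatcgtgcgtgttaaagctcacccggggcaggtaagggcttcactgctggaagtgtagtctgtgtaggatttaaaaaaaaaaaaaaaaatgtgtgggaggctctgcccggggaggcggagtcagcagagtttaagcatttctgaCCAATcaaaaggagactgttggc
Psat1, chr19:15925060-15925309, minus strand: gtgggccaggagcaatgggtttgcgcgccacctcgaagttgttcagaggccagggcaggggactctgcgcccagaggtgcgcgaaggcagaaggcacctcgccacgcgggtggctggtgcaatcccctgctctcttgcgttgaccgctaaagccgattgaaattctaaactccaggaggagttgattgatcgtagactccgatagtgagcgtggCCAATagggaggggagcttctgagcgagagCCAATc
Pycr1, chr11:120643749-120643998, minus strand: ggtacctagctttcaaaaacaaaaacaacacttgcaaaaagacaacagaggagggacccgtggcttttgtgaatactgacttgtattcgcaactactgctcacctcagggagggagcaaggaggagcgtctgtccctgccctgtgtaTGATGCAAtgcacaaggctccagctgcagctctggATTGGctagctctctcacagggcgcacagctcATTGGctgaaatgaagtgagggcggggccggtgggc
The motif TGATGNAA, the C/EBP-ATF composite element, was searched on both strands and was found in Pycr1 alone of the 9 genes, 103 to 96 bases before the start, and in 3.45% of 32851 windows of this length. CACGTG, the E-box, was found in Aldh18a1 alone and in 6.02% of windows. CCAAT, or ATTGG on the other strand, was found in 6 of the 9 genes (Phgdh, Psat1, Psph, Shmt1, Mthfd2 and Pycr1) and in 33.8% of windows, and it overlapped neither of the other motifs. A window without a match says only that these letters are not in it, and other starts were not searched beyond a second Psat1 window that held none of the 3 motifs. The windows of Psat1, Mthfd2 and Shmt1 lie wholly inside the GENCODE gene spans given below, which reach further upstream. The first bases after the Mthfd1l start matched no GENCODE transcript of that gene.

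In proximal tubule cells Phgdh and Psat1 were higher in both mutant libraries than in both wild-type libraries, but neither passed the threshold, which was an adjusted p under 0.05 over all genes of a class by the quasi-likelihood test of edgeR. Over the 9 classes 58 pairs of gene and class passed the filter on low counts. None passed the threshold with edgeR or DESeq2, and the smallest edgeR adjusted p was 0.449. Of all 13177 genes tested in the proximal tubule, 58 (0.440%) passed, and the share was 0.218% in the thick ascending limb, 0.0161% in macrophages, 0.0216% in monocytes, 0.0227% in NK cells and 0.00% in T, B, dendritic and distal tubule cells. At an unadjusted edgeR p under 0.05 there were 5 pairs. Phgdh and Psat1 were higher in the proximal tubule, where 4.71% of all genes were. Mthfd1l was lower in macrophages, T cells and B cells, where 2.74%, 1.83% and 1.68% of all genes were. With 2 libraries a group the exact permutation test of a single value cannot give a p under 0.333, and p-values measure the spread between 2 mice. Levels below are CPM of the summed UMIs of a library and class after TMM scaling within the class, and fold changes are log2, mutant over wild type, with their standard error (SE).

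Phgdh (ENSMUSG00000053398, chr3:98313170-98339990, minus strand) encodes phosphoglycerate dehydrogenase, the first enzyme of serine synthesis. In proximal tubule cells it had 42.0 and 49.5 CPM in mutants, against 32.7 and 11.5 CPM in wild types. The groups did not overlap, and wild-type library 2 was far below the other 3. The means were 45.7 ± 5.28 CPM in mutants and 22.1 ± 14.9 CPM in wild types (SD, n = 2 each), and the log2 fold change was 1.07 (SE 0.43, edgeR adjusted p = 0.470). Without wild-type library 2 the log2 fold change was 0.47, and without wild-type library 1 it was 2.01 with an edgeR adjusted p of 0.012.

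Psat1 (ENSMUSG00000024640, chr19:15904678-15947337, minus strand), the phosphoserine aminotransferase that follows, had 44.6 and 51.1 CPM in mutants, against 31.7 and 20.7 CPM in wild types. The groups did not overlap here either, and wild-type library 2 was again the lowest. The log2 fold change was 0.87 (SE 0.36, edgeR adjusted p = 0.498). It was 0.58 without wild-type library 2, and 1.23 with an edgeR adjusted p of 0.0383 without wild-type library 1. Psph (ENSMUSG00000029446, chr5:129765558-129787449, minus strand), the phosphatase that releases serine, had 76.1 and 72.6 CPM in mutants, against 62.2 and 48.4 CPM in wild types. The groups did not overlap, with a log2 fold change of 0.43 (SE 0.38, edgeR adjusted p = 0.768). Psph lies across the opposite strand of Cct6a, and Psat1 across that of the predicted gene Gm3329.

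**Figure D1:**
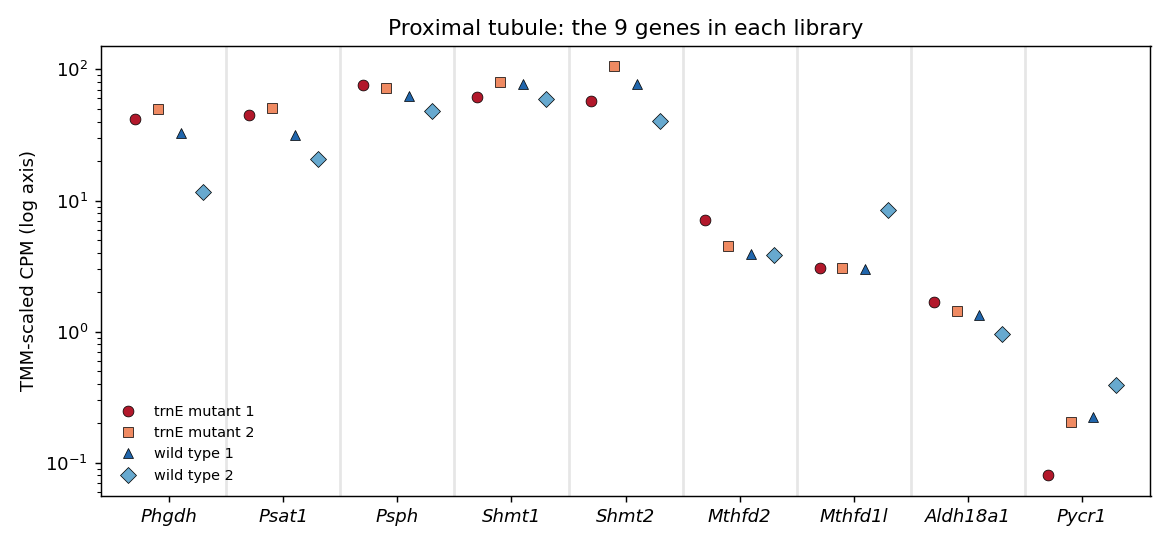
Level of the 9 genes in proximal tubule cells, as TMM-scaled CPM on a log axis, with 1 point for each library and the trnE mutants left of the wild types. For Phgdh and Psat1 both mutant points lie above both wild-type points, and wild-type library 2 is lowest, at 11.5 and 20.7 CPM.

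The folate enzymes of the proximal tubule differed less evenly. Shmt1 (ENSMUSG00000020534, chr11:60788104-60811718, minus strand) had 62.1 and 79.5 CPM in mutants, against 77.7 and 59.2 CPM in wild types. The groups overlapped, and the log2 fold change was 0.05 (SE 0.39, edgeR adjusted p = 0.975). Shmt2 (ENSMUSG00000025403, chr10:127517123-127522444, minus strand) had 57.9 and 105 CPM in mutants, against 77.0 and 40.4 CPM in wild types. Here too the groups overlapped, the highest and the lowest library being mutant 2 and wild type 2 (log2 fold change 0.48, SE 0.44, edgeR adjusted p = 0.768).

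Mthfd2 (ENSMUSG00000005667, chr6:83305691-83325908, minus strand), a mitochondrial folate dehydrogenase that many adult tissues express little, had 7.15 and 4.50 CPM in mutants, against 3.89 and 3.85 CPM in wild types. The groups did not overlap, although mutant library 2 was close to the wild types (log2 fold change 0.61, SE 0.45, edgeR adjusted p = 0.764). Mthfd1l (ENSMUSG00000040675, chr10:3973118-4167081, plus strand), which releases formate from mitochondrial folate, had 3.05 and 3.07 CPM in mutants, against 3.00 and 8.49 CPM in wild types. Only wild-type library 2 was apart, and without it the log2 fold change of -0.94 (SE 0.52, edgeR adjusted p = 0.706) became 0.02.

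Of the proline enzymes, Aldh18a1 (ENSMUSG00000025007, chr19:40550257-40588463, minus strand), which starts proline synthesis, had 1.69 and 1.43 CPM in mutants, against 1.33 and 0.963 CPM in wild types, from 7 to 32 UMIs a library. The groups did not overlap, with a log2 fold change of 0.49 and an SE of 0.64 (edgeR adjusted p = 0.805). Pycr1 (ENSMUSG00000025140, chr11:120635712-120643769, minus strand), which ends it, was below the filter with 1 and 1 UMIs in mutants, against 2 and 13 UMIs in wild types.

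Of the 8 genes that passed the filter in the proximal tubule, 7 had a log2 fold change above 0, as had 50.8% of all genes tested. In 5 of the 8 both mutant libraries were above both wild-type libraries, as were 20.0% of all genes, and in none were both below, against 19.8% of all genes. The median log2 fold change of the 8 was 0.49, beside 0.01 over all genes tested. Scaling to library totals moved the median of all genes to -0.21 and turned Shmt1 below 0, while the other 7 kept their direction.

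Markers of other cell types stood at unequal levels in the proximal tubule sums. The 12 T cell markers, of which 11 could be tested and 4 were called higher, summed to 83.3 and 218 CPM in mutants, against 34.2 and 29.4 CPM in wild types. In CPM without TMM scaling the sums were 84.8 and 185.1 in mutants, against 32.2 and 36.1 in wild types. These were 0.975% and 1.84% of the unscaled sums in T cells of the mutants, against 0.426% and 0.632% in wild types. At the unscaled T cell level of Phgdh such shares amount to 0.597 and 1.34 CPM in mutants, against 0.238 and 0.227 CPM in wild types. The 10 macrophage markers summed to 1675 and 1784 CPM in mutants, against 1119 and 415 CPM in wild types, none called, and at the unscaled macrophage level of Phgdh their shares amount to at most 0.130 CPM. The nuclear transcript Malat1 had 18690 and 8506 CPM in mutants, against 16325 and 36249 CPM in wild types. With Malat1 as a covariate the log2 fold changes of Phgdh and Psat1 were 0.54 and 0.58, and the part of nuclear RNA in them was not tested.

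Per cell, the serine genes were seen in few cells at this depth. After each cell was thinned to 1000 UMIs, 4.83% (95% exact interval 3.88% to 5.94%) and 3.44% (2.40% to 4.78%) of proximal tubule cells of mutants held a Phgdh UMI, against 2.95% (2.16% to 3.93%) and 2.23% (1.73% to 2.84%) of those of wild types. Both mutant shares were above both wild-type shares, but the interval of mutant 1 reached into that of wild type 1, and that of mutant 2 into both wild-type intervals. Unthinned, the shares were 17.8% and 15.4% in mutants, against 13.4% and 10.3% in wild types, at median depths of 4199 and 4142 against 4623 and 6045 UMIs. In macrophages thinned alike the Phgdh share was 0.557% and 0.176% in mutants, against 0 of 799 and 0 of 54 cells in wild types, which allows up to 0.375% and 5.56% at 3 counts of the total, with exact upper limits of 0.461% and 6.60%. Psat1 gave 5.74% and 3.34% of proximal tubule cells in mutants, against 3.09% and 2.89% in wild types, when thinned to 1000 UMIs. Thinned to 500 UMIs the groups overlapped, at 2.72% and 0.991% in mutants, against 1.55% and 1.08% in wild types. They also overlapped unthinned, at 20.7% and 16.2% in mutants, against 15.5% and 16.6% in wild types. Psph overlapped at 1000 UMIs, with 7.40% and 5.98% in mutants, against 6.70% and 6.50% in wild types. Intervals cover counting error only, and 22 to 117 shallower proximal tubule cells a library were left out of the thinned shares.

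Free RNA of the proximal tubule was gauged from its genes Slc34a1, Gpx3 and Kap in other classes. The tubule transporter Slc34a1 stood in T cells at 0.800% and 0.342% of its proximal tubule level in mutants, against 0.644% and 1.94% in wild types. Gpx3 stood there at 2.74% and 0.688% in mutants, against 1.02% and 4.08% in wild types, and Kap at 2.11% and 0.336%, against 0.561% and 1.83%. Psat1 stood at 32.7% and 32.4% in mutants, against 50.1% and 85.3% in wild types, above each of these ratios, and Phgdh was higher in T cells than in the proximal tubule of every library. In macrophages Slc34a1 stood at 0.750% and 0.318% in mutants, against 1.07% and 2.78% in wild types, and Phgdh at 6.98% and 3.14%, against 6.78% and 0.00%. Some ratios were higher in other classes. Slc34a1 reached 7.59% in the thick ascending limb of wild type 2, and Gpx3 9.51% in its distal tubule and 37.0% in its intercalated cells. Kap reached 43.4% in those intercalated cells and 13.2% in plasma cells of mutant 1. TMM-scaled Gpx3 in intercalated cells was 3425 and 3353 CPM in mutants, against 2805 and 3275 CPM in wild types. In the proximal tubule it was 15074 and 28495 CPM in mutants, against 21152 and 7427 CPM in wild types. How much of the Gpx3 ratio was free RNA was not tested.

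Along the tubule Phgdh and Psat1 were unevenly spread. Cells scored as S1/S2-like, the early and middle segments, made up 57.9% and 72.2% of proximal tubule cells in mutants, against 68.2% and 67.9% in wild types, and S3-like cells, the late segment, 7.84% and 8.82%, against 4.01% and 14.9%. The rest, 34.3% and 18.9% against 27.7% and 17.1%, scored for neither list, and that rule was set after the data were seen. In S1/S2-like cells Phgdh had 26.8 and 31.2 CPM in mutants, against 16.2 and 8.15 CPM in wild types. The groups were apart there as in the whole class, with a log2 fold change of 1.28 (SE 0.36, edgeR adjusted p = 0.177). Psat1 had 32.4 and 35.7 CPM in mutants, against 21.5 and 16.7 CPM in wild types, with a log2 fold change of 0.84 (SE 0.31, edgeR adjusted p = 0.346). The S1/S2-like cells took in 2 clusters rich in Malat1. Cluster 12 held 340 and 56 cells of mutants, against 221 and 427 of wild types. Cluster 14 held 177 and 28 cells of mutants, against 99 and 504 of wild types. Cluster mix and level are thus not told apart in the S1/S2-like values. Of all genes, 41 of 12674 (0.323%) passed in S1/S2-like cells, none of them among the 8 members through the filter. At an unadjusted p under 0.05 there were 2, Phgdh and Psat1, both higher, as were 5.62% of all genes. Without wild-type library 1 the count past the threshold was 3, namely Phgdh at 1.86, Psat1 at 1.06 and Mthfd1l at -1.48 (edgeR adjusted p 0.000545, 0.0442 and 0.0321). Without wild-type library 2 the log2 fold changes were 0.83, 0.66 and -0.05.

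Psat1 was low in S3-like cells. It had 5.34 and 3.57 CPM in mutants, against 4.13 and 4.91 CPM in wild types, each from 1 to 13 UMIs, and was 3 or more times higher in the S1/S2-like cells of every library. Phgdh was below the filter there, with 17.4 and 10.7 CPM in mutants, against 0 and 6.05 CPM in wild types, from 13 and 3 UMIs against 0 and 16.

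Single clusters spread the values further. Phgdh was highest in cluster 7, led by Npl, Gatm and Car3 and with a median mitochondrial share of 0.56%, where it had 123 and 160 CPM in mutants, against 111 and 77.3 CPM in wild types. The groups were apart, with a log2 fold change of 0.57 (SE 0.31, edgeR adjusted p = 1). Cluster 7 had the lowest proximal tubule score of the class, 0.242, scored for neither segment list, and had 379.7 CPM of Malat1. It held 523 and 123 cells of mutants, against 302 and 324 of wild types. It gave 256 of 523 and 108 of 242 Phgdh UMIs of the class in mutants. In wild types it gave 180 of 294 and 150 of 383. Cluster mix and level are thus not told apart in the whole-class Phgdh values. Psat1 was highest there too, with 111 and 129 CPM in mutants, against 65.6 and 95.3 CPM in wild types. In the same cells Mthfd2 had 10.5 and 7.39 CPM in mutants, against 2.48 and 2.06 CPM in wild types, from 22 and 5 against 4 and 4 UMIs (log2 fold change 2.03, SE 0.71, edgeR adjusted p = 0.479). Cluster 8, led by the early-segment genes Spp2 and Slc5a2, came next. It had 73.7 and 63.1 CPM of Phgdh in mutants, against 41.0 and 27.0 CPM in wild types (log2 fold change 1.04, SE 0.28, edgeR adjusted p = 0.234). In cluster 5, led by Cyp4a14 and Cyp4a10, Phgdh had 7.18 and 8.70 CPM in mutants, against 4.71 and 5.34 CPM in wild types. In cluster 12, rich in nuclear RNA, it overlapped between the groups, with 17.3 and 4.33 CPM in mutants against 7.73 and 2.38 CPM in wild types. Of the 6 clusters large enough to plot, 5 had Phgdh higher in both mutants, among them all 5 that were not rich in nuclear RNA. In cluster 16, 1 of these 5, Phgdh was below the filter, with 10 and 3 UMIs in mutants against 0 and 13 in wild types. The clusters come from the same 4 libraries and do not count as repeats. Both mutants were above both wild types for 16.0%, 13.4%, 17.1%, 19.9%, 14.8% and 12.1% of all genes through the filter in clusters 5, 7, 8, 12, 16 and 21.

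**Figure D2:**
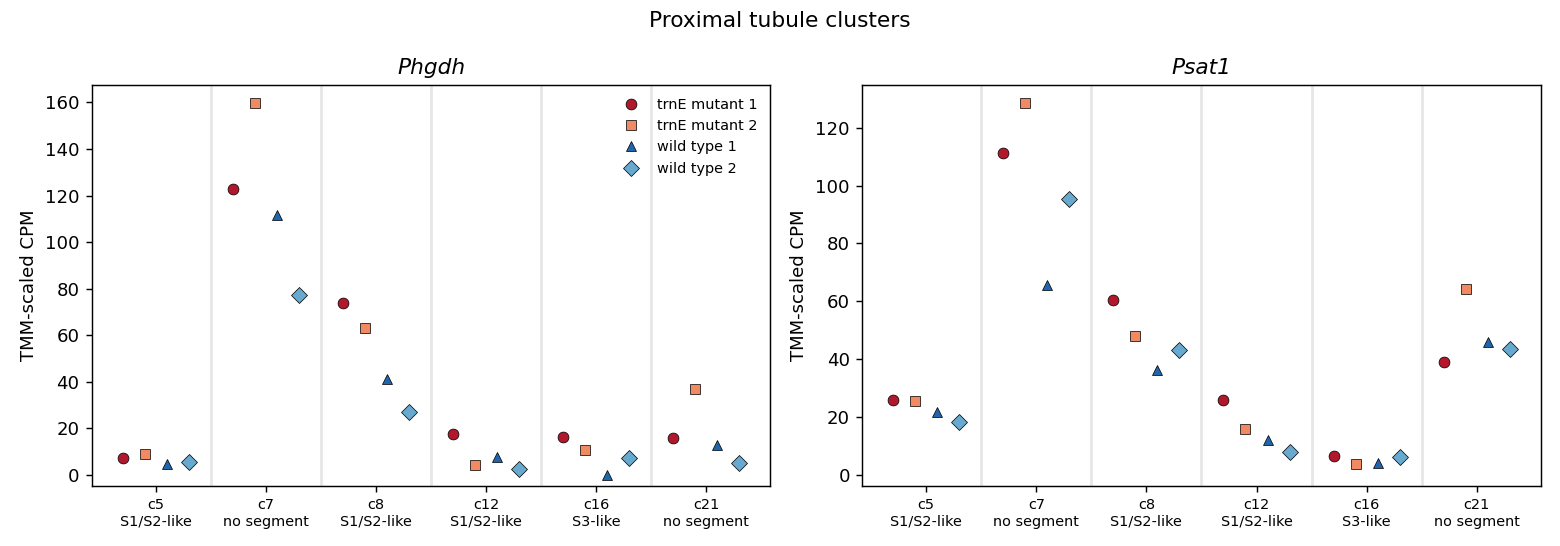
Phgdh and Psat1 in the 6 proximal tubule clusters with at least 50 cells in every library, as TMM-scaled CPM, with 1 point for each library and the trnE mutants left of the wild types. Both genes are highest in cluster 7, where Phgdh lies between 77.3 and 160 CPM, and Psat1 is lowest in the S3-like cluster 16.

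Outside the proximal tubule the serine genes were spread differently from one another. Phgdh was highest in plasma cells, the antibody-secreting cells, and then in T and B cells, with neighbouring classes overlapping. Plasma cells had 158 and 177 CPM in mutants, against 105 and 68.4 CPM in wild types. They numbered only 50 and 33 in mutants, against 21 and 252 in wild types, so they were tested apart from the 9 classes, as a choice made after the data were seen. Both mutants were above both wild types, with a log2 fold change of 0.98 (SE 0.34, edgeR adjusted p = 0.689). None of the 7 members through the filter passed in plasma cells, where 0.0631% of all genes did. In T cells Phgdh had 70.3 and 72.6 CPM in mutants, against 54.8 and 32.0 CPM in wild types, again without overlap (log2 fold change 0.73, SE 0.33, edgeR adjusted p = 0.757). NK cells had 46.9 and 42.4 CPM in mutants, against 33.5 and 16.6 CPM in wild types (log2 fold change 0.69, SE 0.39, edgeR adjusted p = 0.832). The value of wild-type library 2 came from 7 UMIs in 51 cells. The class named NK also held T cell markers, at a summed 6302 and 4202 CPM in mutants, against 3122 and 2789 CPM in wild types. Its NK cell markers summed to 2719 and 5523 CPM in mutants, against 6704 and 1975 CPM in wild types. How far T cells were mixed into this class was not tested. B cells overlapped, with 76.6 and 55.6 CPM in mutants, against 60.4 and 29.3 CPM in wild types. In plasma, T, NK and B cells as in the proximal tubule, wild-type library 2 had the lowest Phgdh of the 4 libraries. Cell mix within T and B cells differed too. A T cell cluster with Foxp3 held 426 and 910 cells of mutants, against 126 and 555 of wild types. All T cells numbered 1277 and 2850, against 630 and 815. A B cell cluster led by Sox5 and Fcrl5 held 41 and 200 cells of mutants, against 53 and 838 of wild types. All B cells numbered 177 and 367, against 223 and 900. Cell mix and level are thus not told apart in the T and B cell values.

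Psat1 was highest in the proximal tubule, and its 4 libraries there lay above all those of the next class, T cells, at 17.1 and 14.0 CPM in mutants, against 14.6 and 19.3 CPM in wild types. The groups overlapped in T cells, and in none of the 5 other classes where it was tested were they apart. The proximal tubule held 49.7% of all 3581 Psat1 UMIs. Psph was broader: after the proximal tubule came T and NK cells, which overlapped with it. In T cells it had 58.8 and 42.4 CPM in mutants, against 39.3 and 30.0 CPM in wild types. In NK cells it had 63.9 and 39.8 CPM in mutants, against 33.5 and 33.1 CPM in wild types, from 45 and 62 UMIs against 50 and 14. Psph was higher in both mutants in 6 of the 9 classes. Of all genes 20.0%, 25.1%, 19.8%, 20.5%, 19.9% and 23.9% were, in the proximal tubule, thick ascending limb, T, NK, B and dendritic cells. Its log2 fold change was above 0 in 8 of the 9, as was that of 50.8% of all genes in the proximal tubule, 49.7% in the thick ascending limb, 49.5% in the distal tubule, 50.9% in macrophages, 50.5% in monocytes and in T cells, 50.4% in NK cells, 48.8% in B cells and 47.9% in dendritic cells. The smallest edgeR adjusted p of Psph was 0.466, in the thick ascending limb.

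**Figure D3:**
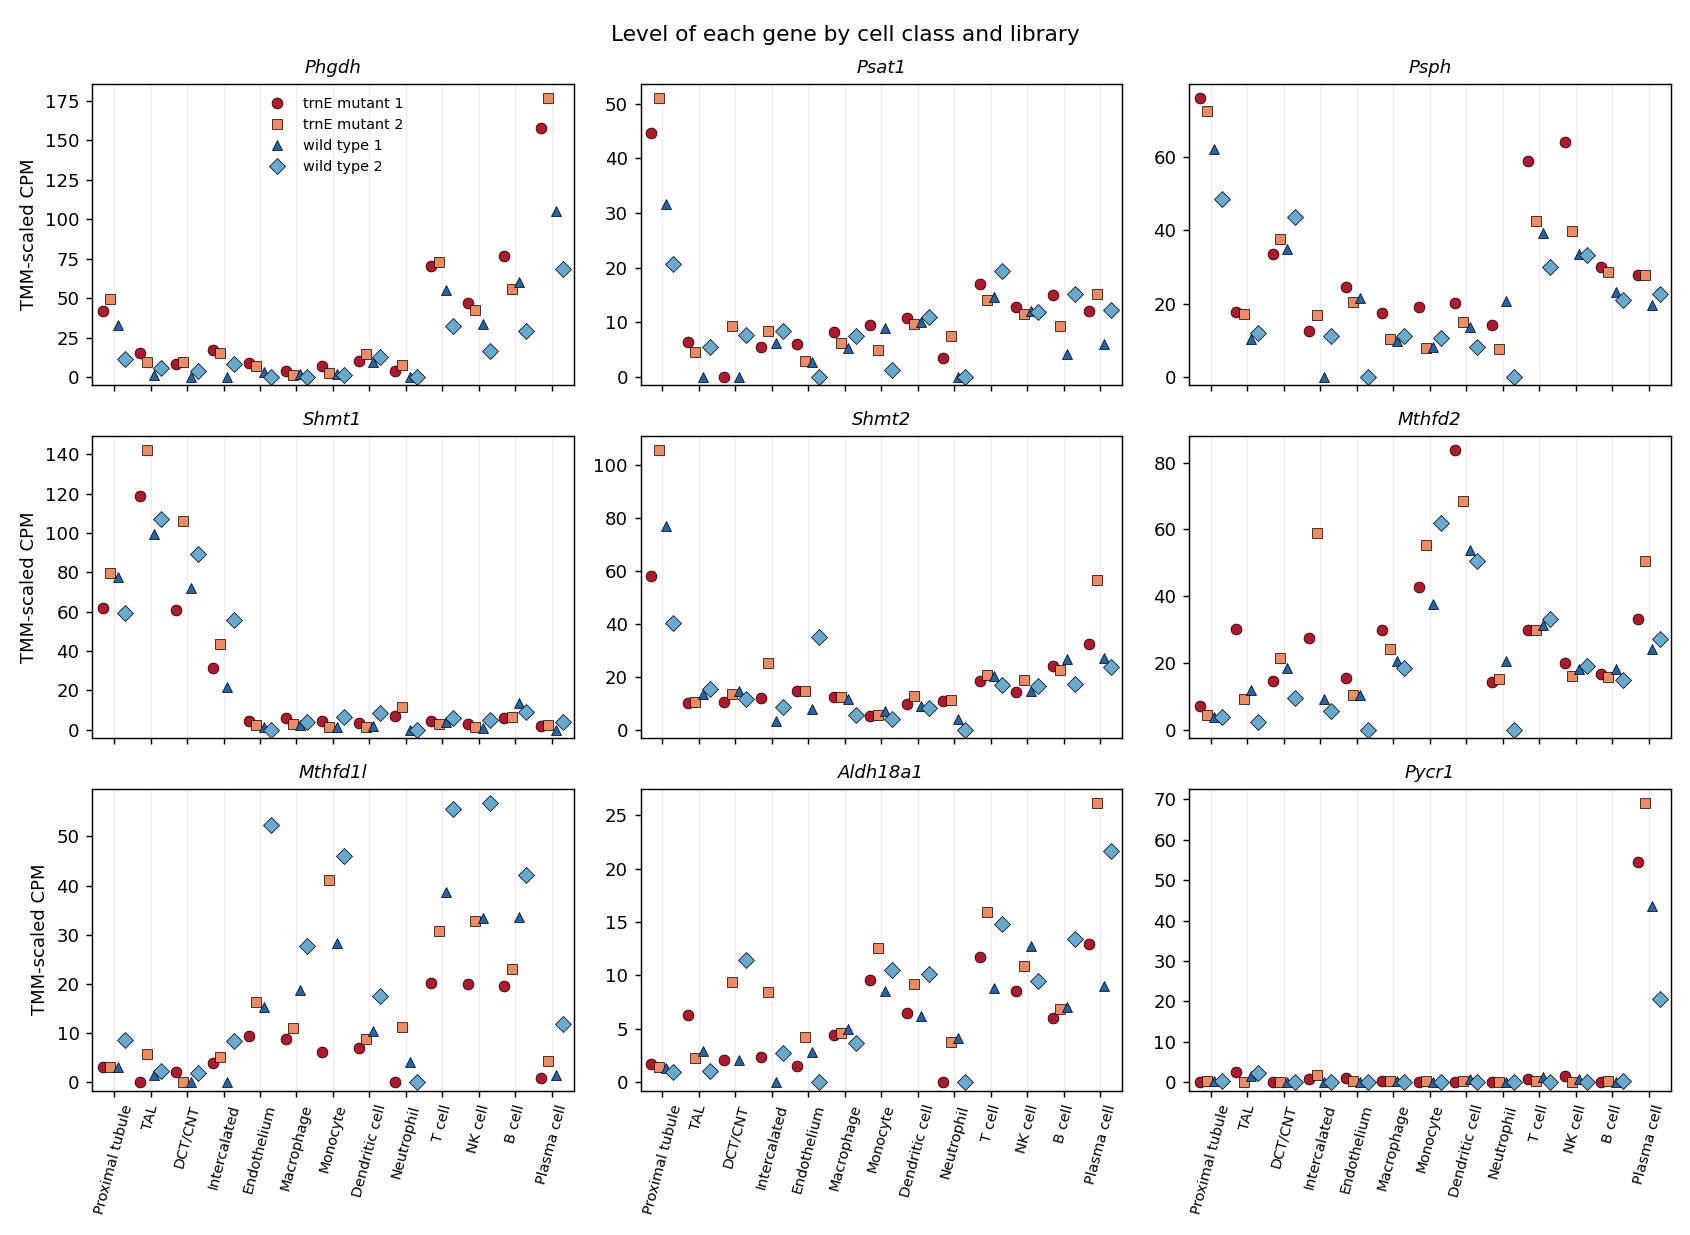
TMM-scaled CPM of each gene in 13 cell classes (TAL, thick ascending limb, and DCT/CNT, distal convoluted and connecting tubule), with 1 point for each library and the trnE mutants left of the wild types. Endothelium and neutrophils hold 9 and 6 cells in wild-type library 2. Pycr1 lies above 20 CPM in plasma cells and at most at 2.52 CPM elsewhere.

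Shmt1 was a tubule gene. The thick ascending limb, which reabsorbs salt in the loop of Henle, had the highest level, with 119 and 142 CPM in mutants, against 99.3 and 107 CPM in wild types. Both mutants were above both wild types (log2 fold change 0.33, SE 0.22, edgeR adjusted p = 0.449). The distal convoluted and connecting tubule followed with 60.8 and 106 CPM in mutants, against 71.9 and 89.3 CPM in wild types, overlapping with both the thick ascending limb and the proximal tubule. Intercalated cells lay below these 3 classes, and B cells had 6.00 and 6.18 CPM in mutants, against 13.3 and 9.11 CPM in wild types. Shmt2 was highest in the proximal tubule and then in plasma cells, at 32.3 and 56.5 CPM in mutants, against 27.1 and 23.5 CPM in wild types. Those did not overlap, with a log2 fold change of 0.84 (SE 0.37, edgeR adjusted p = 0.689).

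Mthfd2 had its highest mean in dendritic cells, with 83.7 and 68.6 CPM in mutants, against 53.8 and 50.5 CPM in wild types. The groups were apart, with a log2 fold change of 0.54 (SE 0.31, edgeR adjusted p = 0.639). Monocytes came next and overlapped with dendritic cells, at 42.6 and 55.3 CPM in mutants, against 37.6 and 61.9 CPM in wild types, and their groups overlapped (log2 fold change 0.045, SE 0.35, edgeR adjusted p = 0.98). Macrophages had 30.0 and 24.0 CPM in mutants, against 20.4 and 18.5 CPM in wild types, and T cells, where the difference ran the other way, 29.7 and 29.7 CPM in mutants, against 31.4 and 33.0 CPM in wild types. The macrophage value of wild-type library 2 came from 10 UMIs in 57 cells. The largest log2 fold change of Mthfd2 was 2.48 (SE 0.72, edgeR adjusted p = 0.414) in intercalated cells, which handle acid and base in the collecting duct. They had 27.5 and 58.9 CPM in mutants, against 9.26 and 5.56 CPM in wild types, from 35 and 35 UMIs against 3 and 2. It was called without wild-type library 1 alone (2.98, edgeR adjusted p = 0.0473). Only 153 and 103 cells of mutants, against 66 and 37 of wild types, stood behind these values, and this class too was added after the data were seen. Of all genes 0.0478% passed there, and of the 9 only Mthfd2 and Shmt1 were through the filter, neither past the threshold. Their proximal tubule marker Kap stood at 5.50 and 8.42 CPM in mutants, against 3.09 and 2147 CPM in wild types, and its part in the result was not tested.

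Mthfd1l had a log2 fold change below 0 in all 7 classes where it passed the filter, none past the threshold. Macrophages had 8.88 and 11.0 CPM in mutants, against 18.7 and 27.7 CPM in wild types, with a log2 fold change of -1.11 (SE 0.36, edgeR adjusted p = 0.731). These levels came from 123 and 154 UMIs in mutants, against 98 and 15 UMIs in wild types, the last from 57 cells. T cells had 20.2 and 30.8 CPM in mutants, against 38.7 and 55.5 CPM in wild types, and the log2 fold change was -0.88 (SE 0.33, edgeR adjusted p = 0.757). B cells had 19.5 and 23.0 CPM in mutants, against 33.7 and 42.2 CPM in wild types (log2 fold change -0.82, SE 0.33, edgeR adjusted p = 0.773). NK cells had 19.9 and 32.8 CPM in mutants, against 33.5 and 56.8 CPM in wild types. Dendritic cells had 6.90 and 8.76 CPM in mutants, against 10.4 and 17.5 CPM in wild types. Wild-type library 2 gave 19 UMIs from 59 dendritic cells and 24 UMIs from 51 NK cells. In these 5 classes both mutants were below both wild types, as were 22.1%, 19.2%, 20.3%, 21.2% and 23.8% of all genes in macrophages, T, B, NK and dendritic cells. Wild-type library 2 was highest in each of the 5, and without it the log2 fold changes were -0.89 in macrophages, -0.59 in T cells and -0.62 in B cells. As for Phgdh, cell mix and level are not told apart in T and B cells. Monocytes overlapped, with 6.09 and 41.2 CPM in mutants, against 28.4 and 46.1 CPM in wild types, and passed the threshold when mutant library 2 was left out.

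Malat1, a transcript kept in the nucleus, differed in the same direction. In T cells Malat1 had 12640 and 9106 CPM in mutants, against 13981 and 18507 CPM in wild types, and in macrophages 13568 and 9240 CPM in mutants, against 15719 and 19684 CPM in wild types. B cells had 12098 and 7802 CPM in mutants, against 12799 and 15653 CPM in wild types. All 3 classes had Malat1 lower in both mutants, and wild-type library 2 was highest in each. With Malat1 as a covariate the Mthfd1l log2 fold changes were -0.60 in T cells, -0.67 in B cells and -0.68 in macrophages, with unadjusted edgeR p between 0.42 and 0.519. The gene spans 194.0 kb, the most of the 9, whose other members span 5.3 to 42.7 kb. As Malat1 was lower in both mutants of these classes, it cannot be told apart from genotype in the covariate fit of 4 libraries. A part of nuclear RNA or of gene length in the Mthfd1l values was not tested.

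**Figure D4:**
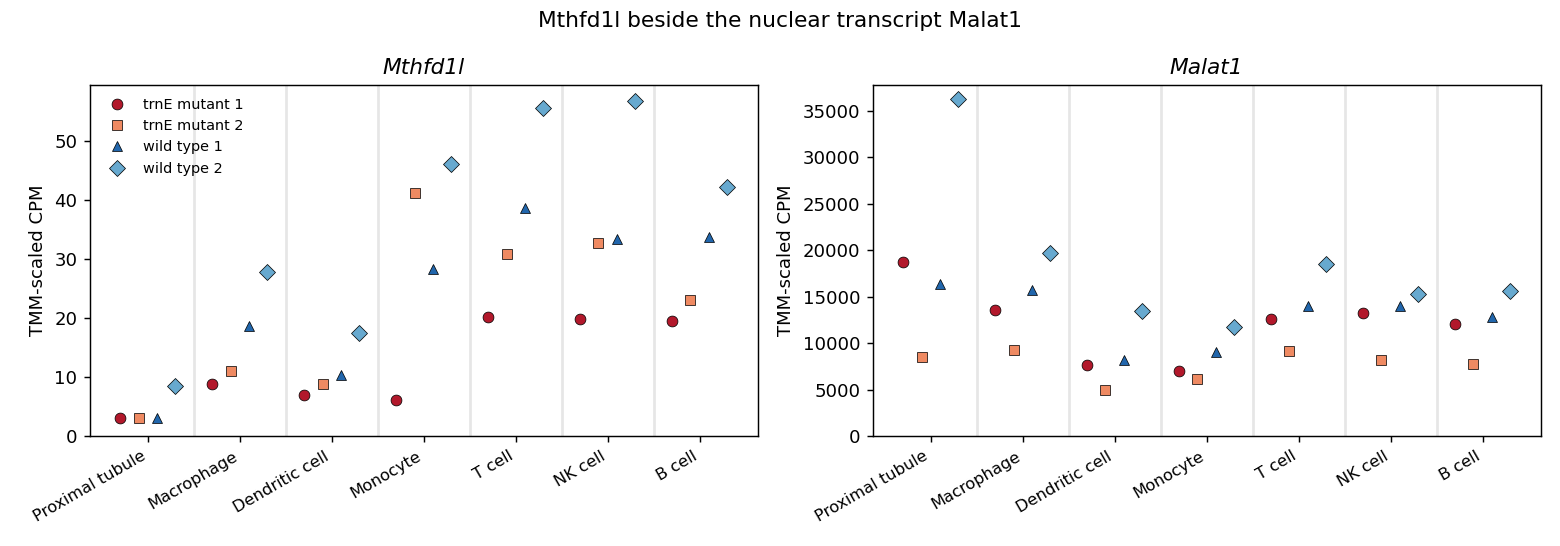
Mthfd1l and Malat1 in the 7 classes where Mthfd1l passed the filter, as TMM-scaled CPM, with 1 point for each library and the trnE mutants left of the wild types. Wild-type library 2 is highest in both panels in every class, with Mthfd1l at 55.5 CPM and Malat1 at 18507 CPM in T cells.

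Pycr1 was nearly confined to plasma cells, which held 81.8% of its 446 UMIs in all libraries. They had 54.4 and 69.2 CPM in mutants, against 43.7 and 20.5 CPM in wild types, and every other class had at most 2.52 CPM in any library. Both mutants were above both wild types, with a log2 fold change of 1.09 (SE 0.40, edgeR adjusted p = 0.689). Aldh18a1 was also highest in plasma cells, at 12.9 and 26.1 CPM in mutants, against 9.03 and 21.7 CPM in wild types, where the groups overlapped, and then in T cells. In plasma cells 7 of the 9 genes passed the filter, all 7 with a log2 fold change above 0, as had 49.8% of all genes tested. In 5 of these 7 both mutants were above both wild types, as were 19.4% of all genes. Here wild-type library 2 held most of the cells and the scaling weighed most: with library totals in place of TMM the median over all genes moved to -0.65, and the log2 fold changes of Phgdh, Shmt2 and Pycr1 became 0.43, 0.20 and 0.51. Without wild-type library 2 they were 0.67, 0.72 and 0.50. Without wild-type library 1, Phgdh and Pycr1 passed at 1.42 and 1.72 (edgeR adjusted p 0.0218 and 0.000607).

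**Figure D5:**
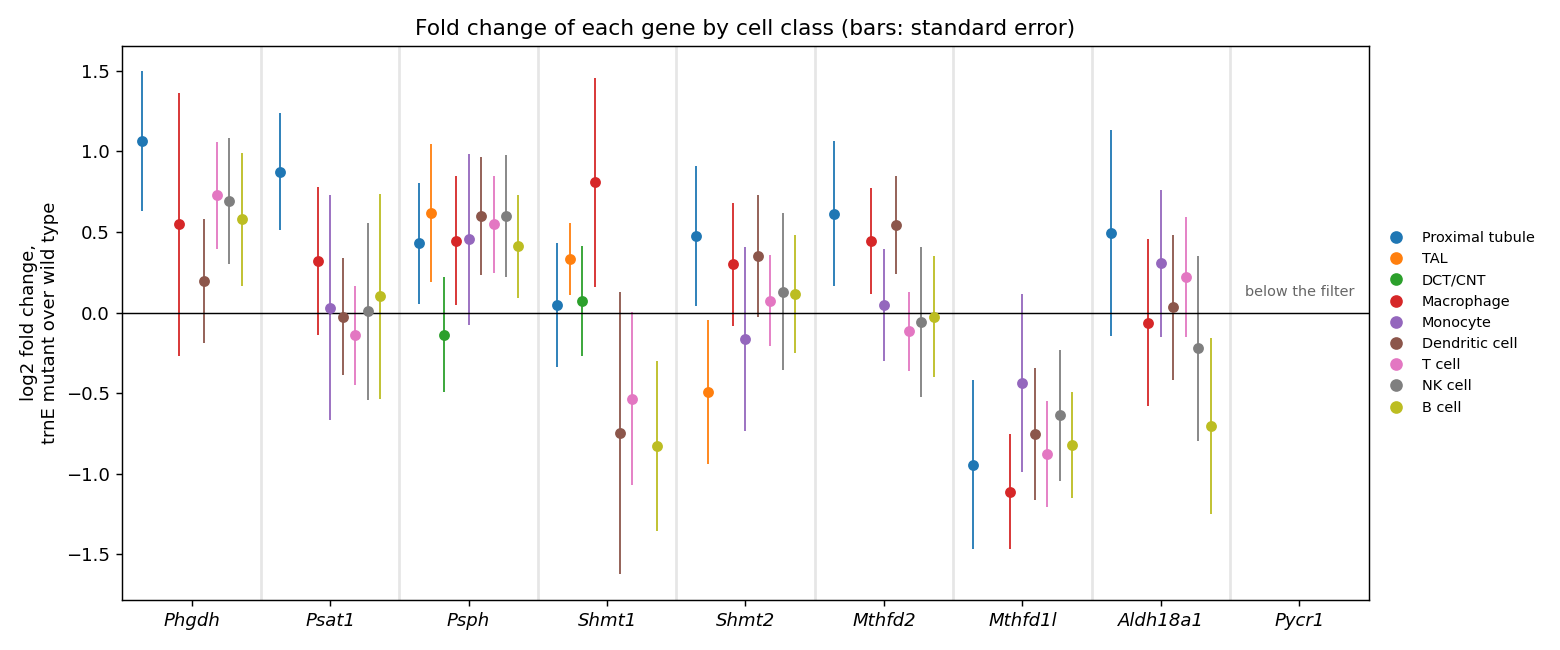
Log2 fold change, trnE mutant over wild type, of each gene in the 9 tested classes, with bars of 1 standard error. A class is absent where the gene was below the filter. Mthfd1l lies below 0 in all 7 classes shown, down to -1.11 in macrophages, and Psph above 0 in 8 of 9.

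Whether the genotype effect differed between 2 classes was tested with an interaction term, in a fit that held the library as a block. Between the proximal tubule and each of the 8 other tested classes 8 members could be tested, or 7 against the thick ascending limb, and Pycr1 in none. None passed, with a smallest edgeR adjusted p of 0.988, while 0.134% of all genes passed against B cells, 0.0980% against dendritic cells, 0.164% against the distal tubule, 0.251% against macrophages, 0.347% against monocytes, 0.819% against NK cells, 0.00% against T cells and 0.442% against the thick ascending limb. Among the members 1 had an unadjusted p under 0.05, as had 4.60% of all genes in that contrast. It was Psat1 against T cells, where the log2 fold change was 1.05 larger in the proximal tubule (SE 0.46, edgeR adjusted p = 1). Outside the proximal tubule 5 pairs of classes had groups apart in opposite directions, and all 5 had an edgeR adjusted p of 1. Mthfd2 differed by 0.69 between dendritic and T cells and by 0.53 between macrophages and T cells. Shmt1 differed by 1.18 between the thick ascending limb and B cells. Shmt2 differed by 0.80 between dendritic cells and the thick ascending limb, and by 0.90 between macrophages and the thick ascending limb.

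The rest of the pathways was counted in the proximal tubule from 4 lists without the 9 genes, where 4.71% of all genes were higher and 3.45% lower at an unadjusted p under 0.05. Of 24 genes of serine and glycine metabolism, 18 passed the filter, none was called and none had an unadjusted p under 0.05, and the median log2 fold change was 0.26. Of 33 genes of the folate pathway 32 passed the filter, none was called and none had an unadjusted p under 0.05, with a median of 0.16. Of the 25 genes where proline, glutamate and arginine metabolism join, 24 were tested, none was called, 1 had an unadjusted p under 0.05, and the median was 0.06. That gene was Asns, asparagine synthetase, with 3.85 and 3.88 CPM in mutants, against 1.67 and 0.873 CPM in wild types (log2 fold change 1.68, SE 0.58, edgeR adjusted p = 0.309). The second of that list by p was Pycrl, a cytosolic relative of Pycr1, with 40.6 and 47.6 CPM in mutants, against 34.8 and 19.4 CPM in wild types (log2 fold change 0.71, SE 0.38, edgeR adjusted p = 0.685). Both were higher in both mutants.

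Of 17 regulators of these enzymes and genes that report their activity, 13 passed the filter. One was called, 5 had an unadjusted p under 0.05, and all 5 were higher in mutants, with a list median of 0.56. Gdf15, a secreted stress hormone, had 61.6 and 20.0 CPM in mutants, against 7.55 and 10.6 CPM in wild types. Both mutants were above both wild types, mutant library 1 by far, with a log2 fold change of 2.17 (SE 0.45, edgeR adjusted p = 0.0446). The call held under 10 of 19 alternatives. It was lost without mutant library 1 (1.14, edgeR adjusted p = 0.703), without wild-type library 2 (2.45, edgeR adjusted p = 0.411), without the nuclear-rich clusters (1.00, edgeR adjusted p = 0.666) and with library totals (1.98, edgeR adjusted p = 0.408). In the other 5 the edgeR adjusted p lay between 0.0535 and 0.0742. Atf5, a relative of Atf4 that also answers stress in mitochondria, had 19.9 and 11.2 CPM in mutants, against 5.66 and 3.04 CPM in wild types (log2 fold change 1.90, SE 0.42, edgeR adjusted p = 0.061). Atf4 itself had 49.2 and 48.0 CPM in mutants, against 30.3 and 35.8 CPM in wild types, with a log2 fold change of 0.56 (SE 0.35, edgeR adjusted p = 0.752), and was given because these genes are its known targets, with its values seen. In the 8 other tested classes edgeR called none of the 484 pairs of gene and class, and at an unadjusted p under 0.05 there were 20 higher and 7 lower, as were 2.74% and 2.98% of all genes over these classes. DESeq2 called Nupr1 and Gdf15 in the thick ascending limb. In intercalated cells, the class added after the data were seen, edgeR called 1 gene of the lists. That was Nupr1, a nuclear protein induced by stress, with 285 and 823 CPM in mutants, against 58.6 and 22.2 CPM in wild types. Both mutants were far above both wild types, with a log2 fold change of 3.78 (SE 0.64, edgeR adjusted p = 0.0411), and the call was lost when mitochondrial genes or mutant library 2 were left out.

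Genes most alike in pattern were sought over the 36 sums of 9 classes and 4 libraries, in the 9333 genes that averaged 10 CPM or more, as a description only, since the sums of a class share cells and those of a library share depth. Phgdh was closest to Arap2 (Pearson r 0.86), Gimap9 and Ppp1r16b, and Psat1 to Asb13 (0.76), Sepsecs and Alkbh3. Shmt1 was closest to Bpnt1 (0.96), Ggnbp1 and Zfp503, and Shmt2 to Apeh (0.88), Acbd4 and Scly. Mthfd2 was closest to Orai1 (0.85), Ccdc12 and Tor1a, and Mthfd1l to Rapgef1 (0.95), Stim1 and Traf3. Aldh18a1 and Pycr1 lay below 10 CPM on average.

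Over all kept cells, where cell make-up and level cannot be told apart, the groups overlapped for Phgdh, with 26.9 and 34.8 CPM in mutants, against 23.9 and 30.4 CPM in wild types. Of the 9 genes Mthfd2 alone had both mutants above both wild types, with 29.0 and 29.6 CPM in mutants, against 22.6 and 16.9 CPM in wild types. Shmt2, with 22.2 and 23.0 CPM in mutants against 28.8 and 36.0 CPM in wild types, and Shmt1, with 21.1 and 14.1 against 25.6 and 44.9 CPM, had both below. The other 6 overlapped. The share of all genes apart in either direction was not counted over all kept cells, so these counts are not read as a result about the 9 genes. In the proximal tubule sums 20.0% of all genes were higher and 19.8% lower in both mutants.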

How the data were processed

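Live-sorted kidney cells of 2 trnE mutant and 2 wild-type mice were the source of droplet 3′ libraries, per the labels. The deposited values are raw UMI counts for each gene and barcode, made by the authors with Cell Ranger 7.0.0 (mutants) and 7.1.0 (wild types) per the file headers, so that version and group cannot be told apart. The mm10 build is per the submitters' processing notes, while neither the annotation release and use of strand nor the mice's ages, litters and days of processing are stated.

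Barcodes were kept from 200 genes and 500 UMIs upward and up to 50% mitochondrial UMIs, and Scrublet doublets (267, 222, 90 and 128 in mutants 1 and 2 and wild types 1 and 2) were removed. Clusters (scanpy 1.11.5, leidenalg 0.10.2, resolution 1, no integration and no correction for free RNA) took the name of the best marker list if at least 3 markers were detected. No other list could hold more of the 10 leading genes, and shallow clusters with no own marker among these stayed unnamed. Unnamed cells numbered 1185 and 548 in mutants, against 368 and 883 in wild types. They entered no class and held 9.58% of Phgdh UMIs. UMIs were summed per library and class and tested with the quasi-likelihood test of edgeR 4.0.16 (filterByExpr, TMM, Benjamini-Hochberg over all genes of the class), beside DESeq2 1.42.0, in R 4.3.3. The edgeR code was tested on simulated data.

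The members, lists and most settings were chosen with earlier results of these data known. All 9 members were named, with list genes past the threshold and the 2 of each list with the smallest p in the proximal tubule, and the 3 genes most alike, those of Psph not being reported here. Fits in plasma cells, intercalated cells and single clusters, the Malat1 covariate, the choices of clusters and the crossed block were added after the data were seen. Positions are from GENCODE M21 on mm10. Psat1, Psph, Shmt1 and Shmt2 overlap genes on the other strand, and Mthfd2, Mthfd1l and Aldh18a1 predicted genes on their own, so shared reads may be split.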

Additional observations from a re-analysis of the deposited data

How the results depend on the processing

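Of the 8 genes tested in the proximal tubule, Phgdh (0.47 to 2.01), Psat1 (0.54 to 1.23), Psph (0.17 to 0.65) and Mthfd2 (0.22 to 1.22) kept a log2 fold change above 0 under all 19 alternatives. Shmt1 turned below 0 with library totals (-0.16), without mutant 2 (-0.13), without wild type 2 (-0.15), with the Malat1 covariate (-0.25) and without the clusters of no segment (-0.052). Shmt2 did without mutant 2 (-0.00885) and with the Malat1 covariate (-0.22), Aldh18a1 without the nuclear-rich clusters (-0.037), and Mthfd1l turned above 0 without wild type 2 (0.018). With 1 library left out Shmt1 ran from -0.15 to 0.28, Shmt2 from -0.00885 to 1.03 and Mthfd1l from -1.44 to 0.018. The cause was not tested.

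No member passed the threshold in any class under the alternatives that kept all 4 libraries. With 1 library left out, between 0 and 2 passed in the proximal tubule, 0 to 3 in S1/S2-like cells, 0 to 1 in monocytes (Mthfd1l), 0 to 2 in plasma cells and 0 to 1 in intercalated cells. The count of other pathway genes past the threshold in the proximal tubule, 1 as reported, was 0 with library totals, a mitochondrial limit of 25%, doublets kept, the Malat1 covariate, without the clusters of no segment and with the crossed block, 2 with DESeq2, without the nuclear-rich clusters and with the shallow cluster, and 3 without the filter, with a limit of 80% and with the replicate block. In the thick ascending limb it was 0, but 7 without the filter, 2 with DESeq2 and 1 with the Malat1 covariate. It was 1 in place of 0 without the filter in dendritic, T and distal tubule cells and with the Malat1 covariate in macrophages, NK and plasma cells, and in intercalated cells 0 without mitochondrial genes and 2 without the filter, in place of 1. With 1 library left out it ran from 0 to 11 in the proximal tubule, 0 to 6 in the thick ascending limb, 0 to 5 in intercalated cells, 0 to 2 in macrophages and 0 to 1 in dendritic cells, monocytes and plasma cells.

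The replicate numbers give no pairing by their labels, and same-numbered libraries did not deviate together in every class (r from -0.25 in the proximal tubule to 0.31 in monocytes). In the proximal tubule 153 genes passed with the replicate block and 25 with the crossed block, in place of 58, and in both 0 members passed. Where 1 library of a group was left out, the lone library was assumed to vary like the others. Depth limits Pycr1 outside plasma cells most, with at most 13 UMIs a library.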
